A study of Homo sapiens with 14 samples.

Results

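Dense editing clusters are short stretches of the genome in which several adenosines close together read as guanosine in RNA. They were taken here from cells treated with either of 2 RNA base editors, REPAIR.t1 or dCas13d-ADAR. The cells were HEK293T, an established line of human embryonic kidney origin. All sites listed in the 4 REPAIR.t1 and 4 dCas13d-ADAR libraries were pooled into a union of 17194 sites, and a member was a site with at least 3 other union sites within 50 bases either way. This gave 588 members, which is 3.42% of the union, and members within 50 bases of each other were merged into 174 clusters. The whole series lists 26172 distinct sites. The members were chosen by their presence in these 8 lists, so the numbers of members and how often the lists hold them are given as descriptions, with no test.

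The series compares RNA editing between 4 editors in 14 libraries of polyadenylated RNA, in 7 groups of 2. REPAIR.t1 was sampled with the NT guide and the EZH2_A22 guide, dCas13d-ADAR with the NT and EZH2 guides, and REPAIRv2 with NT and EZH2_A22. DECOR had only the MALAT1 guide. NT and A22 are not explained in the labels. Every group had an editor, so a listed site need not be the editor's work. Reads of DECOR ran for 62 and 160 cycles and those of all others for 25 and 97. For DECOR the effects of guide, editor and read length therefore cannot be told apart. Each list gives a chromosome, a position on hg19 and the A-to-G rate, a fraction from 0 to 1 read here as the editing level. The union libraries list 4356 to 5834 sites each. Coverage and strand are not in the lists, so no counting error can be attached to a level, and absence from a list can mean no editing, a level under the authors' limit or few reads. Nothing in the labels says that a group's libraries are from separate cultures, so SDs and p-values cover the differences among libraries, and these can be purely technical.

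Adenosine deaminases acting on RNA (ADARs) convert adenosine to inosine, which is read as guanosine in sequencing. They work on double-stranded RNA, and a long duplex can be edited at many adenosines, whereas a short or interrupted one is often edited at a few preferred positions. Base editors of the REPAIR family join the deaminase domain of an ADAR to a Cas13 protein that binds RNA through a guide but no longer cuts it, and the free action of the deaminase domain on other transcripts is their known side effect. Genes, exons, strands and base sequence at the clusters were not analysed here, since no annotation or genome of hg19 was at hand, so a cluster is described by its positions.

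The clusters were compact. A cluster spanned 27.5 bases at the median, counted from its first to its last member, and 103 bases at most. The number of members was 4 in 73 clusters, 5 in 28, 6 in 6 and 7 in 3. The remaining clusters held 3 members or fewer, since a site can have 3 neighbours that themselves have too few: 37 had 1 member, 19 had 2 and 8 had 3. The gap between neighbouring members of a cluster was 8 bases at the median (414 gaps), and 56.8% of the gaps were 10 bases or less. Among the other 3170 gaps of at most 50 bases between neighbouring union sites, the median was 17 bases and 36.5% were 10 bases or less, but the rule itself favours short gaps within clusters.

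**Figure D1:**
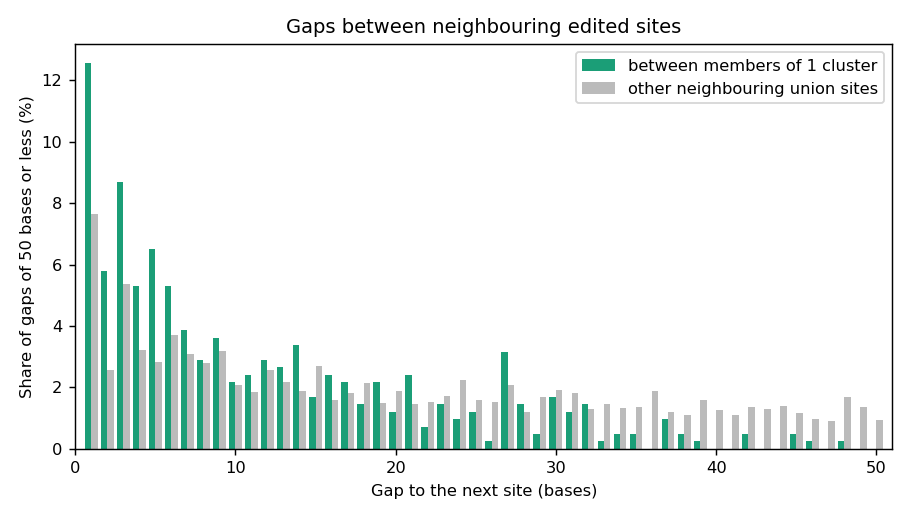
Share of gaps (%) by gap length in bases, between neighbouring members of 1 cluster (green, 414 gaps) and between other neighbouring union sites at most 50 bases apart (grey, 3170 gaps). Directly adjacent bases make up the tallest bar in both sets, at 12.6% and 7.63%, and a gap of 3 bases is the next tallest, at 8.70% and 5.36%.

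Directly adjacent positions were the most frequent spacing. Of the 414 gaps within clusters, 52 (12.6%) were of 1 base, 24 of 2 bases and 36 (8.70%) of 3 bases. Among the other gaps 242, 81 and 170 were of these lengths, so the dip at 2 bases and the second peak at 3 bases were present outside the clusters too. In 41 clusters at least 2 members were consecutive positions. Members formed 37 runs of 2 consecutive positions, 6 runs of 3 and 1 run of 4.

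Clusters were spread over most chromosomes. Chromosome 1 had 25 clusters, chromosome 19 had 21 and chromosome X had 14. On chromosome X 54 of 735 union sites (7.35%) were members, the highest share of any chromosome, followed by chromosome 22 with 45 of 778 (5.78%). Chromosome 17 had many sites and few members, 13 of 1132 (1.15%). Chromosomes 13 and 18, with 114 and 126 union sites, held 0 members.

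Both editors listed sites in most clusters. Of the 174 clusters, 128 had entries from both editors, at the same or at different members, 34 from dCas13d-ADAR libraries alone and 12 from REPAIR.t1 libraries alone. Each of the 8 libraries had an entry at some member in 48 clusters, and in 40 clusters at least 1 member was listed in all 8. All entries came from 1 library in 22 clusters. A single library listed 3 or more members in 107 clusters, 4 or more in 67, and up to 6. Clusters are thus partly made by adding up sites of different libraries: of the 110 clusters with at least 4 members, 1 library by itself listed 4 or more in 67. Smaller clusters cannot reach 4, and listed sites beside the members were not counted here.

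Each REPAIR.t1 library listed fewer members than each dCas13d-ADAR library, but its list was shorter as well. The REPAIR.t1 NT libraries listed 217 and 187 members and the EZH2_A22 libraries 194 and 214. The dCas13d-ADAR NT libraries listed 253 and 258 members and the EZH2 libraries 264 and 266. As a share of the list, members made up 4.37% ± 0.241 in REPAIR.t1 (SD, n = 4) and 4.50% ± 0.0784 in dCas13d-ADAR (SD, n = 4), and the libraries of the editors overlapped (4.07% to 4.63% against 4.42% to 4.59%).

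Members recurred between libraries more often than other union sites. Of the members 39.1% (230) were in 1 library alone and 8.67% (51) in all 8, against 49.03% and 3.36% of the other 16606 union sites. Both editors listed 261 members (44.4%), REPAIR.t1 alone 114 (19.4%) and dCas13d-ADAR alone 213 (36.2%); of the other sites 33.4% were listed by both. The share in all 8 libraries grew with the number of neighbours, from 2.40% of sites with 0 others within 50 bases through 6.91% with 3 to 17.9% of the 39 sites with 5 or 6.

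Members of a cluster differed in how many libraries listed them. In the 110 clusters of at least 4 members, the member listed by the most libraries (ties going to the higher mean level) was in 6 libraries at the median and the others in 2. This leading member was in all 8 libraries in 37 of the 110 clusters. Its mean level was 0.285 at the median, against 0.2 for the median of the other members, and it was higher in 102 of the 110 clusters. The leading member was picked as the most recurrent, with ties settled by level, so its larger number of libraries follows from the choice and its level is in part chosen too.

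The median level at members lay slightly below that at other sites of the same list. The median level at members was 0.236 ± 0.0105 in REPAIR.t1 libraries (SD, n = 4), against 0.257 ± 0.00760 at its other sites, and 0.241 ± 0.00879 in dCas13d-ADAR libraries (SD, n = 4), against 0.267 ± 0.00220. The members were lower in 4 of 4 libraries of each editor, with differences of -0.0346 to -0.0127 in REPAIR.t1 and of -0.0396 to -0.0147 in dCas13d-ADAR. The upper end varied between libraries of each editor, and differences there were not tested. Levels of at least 0.5 made up 11.5%, 8.14%, 5.68% and 9.40% of the members' entries in its libraries. At other sites they made up 6.68%, 7.75%, 6.39% and 6.37%, so members were higher in 3 of 4. In REPAIR.t1 libraries these shares were 3.23%, 3.74%, 5.67% and 4.21% at members. At other sites they were 4.39%, 4.29%, 4.70% and 5.12%, so members were lower in 3 of 4. Sites with more neighbours mostly had lower medians. Sites with 0 others within 50 bases had a median of 0.266 ± 0.00351 in REPAIR.t1 and 0.276 ± 0.00367 in dCas13d-ADAR (SD, n = 4 each), and sites with 5 or 6 others had 0.171 ± 0.00875 and 0.209 ± 0.0126. Just outside the threshold, the 1355 sites with 2 others had 0.237 ± 0.00948 and 0.242 ± 0.00593, and just inside it the 405 sites with 3 others had 0.247 ± 0.0148 and 0.249 ± 0.00515, so nothing changed sharply at the threshold.

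**Figure D2:**
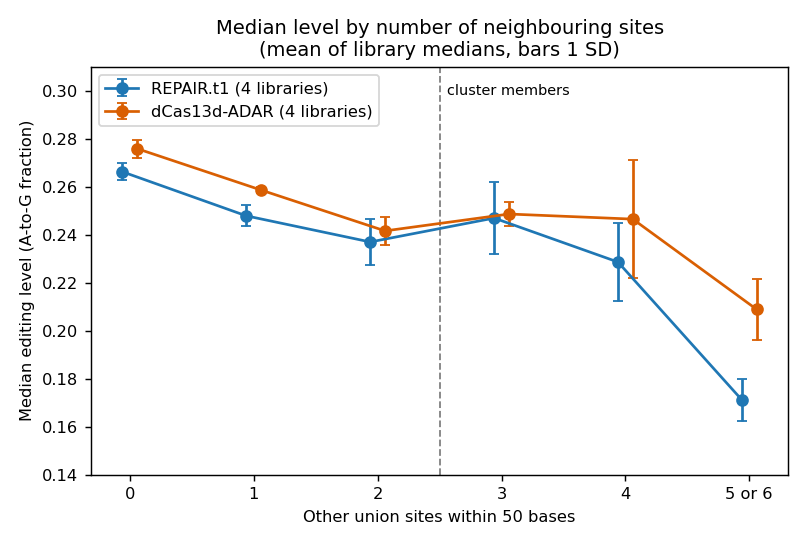
Median editing level (A-to-G fraction) against the number of other union sites within 50 bases, as the mean of 4 library medians with bars of 1 SD, for REPAIR.t1 (blue) and dCas13d-ADAR (orange); the dashed line marks the threshold of the rule. Both editors lie highest at 0 neighbours (0.266 and 0.276) and lowest at 5 or 6 (0.171 and 0.209).

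The longest run of consecutive members was 4 positions, 74228114 to 74228117 on chromosome 6, and all 4 were listed in all 8 libraries. At 74228115 the levels were 0.432 and 0.471 in REPAIR.t1 NT, 0.453 and 0.450 in REPAIR.t1 EZH2_A22, 0.475 and 0.531 in dCas13d-ADAR NT, and 0.575 and 0.5 in dCas13d-ADAR EZH2. It was the highest of the 4 in 8 of 8 libraries. Position 74228117 was the lowest in 8 of 8, at 0.216 ± 0.0382 in REPAIR.t1 and 0.204 ± 0.0389 in dCas13d-ADAR (SD, n = 4 each). The positions 74228114 and 74228116 lay between them, at 0.354 and 0.357 in REPAIR.t1 and at 0.330 and 0.354 in dCas13d-ADAR. The highest and the lowest position of this run were therefore the same in all 8 libraries, but the order of the middle positions changed. Position 74228114 was below 74228116 in REPAIR.t1 NT replicate 1 (0.341 and 0.372) and above it in replicate 2 (0.385 and 0.353). The level of single bases differed by more than 0.2 within 4 positions.

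Of the 5 other clusters with at least 2 members in all 8 libraries, 2 kept 1 order throughout. On chromosome 9, in a cluster picked after its values were seen, position 19378447 was above position 19378444 in 8 of 8 libraries, at 0.272 against 0.155 in REPAIR.t1 and 0.324 against 0.185 in dCas13d-ADAR. On chromosome 22, position 39710791 was above its neighbour 39710792 in 8 of 8, at 0.210 against 0.118 in REPAIR.t1 and 0.175 against 0.134 in dCas13d-ADAR. In the other 3 the highest site changed between libraries: position 57100169 on chromosome 11 was the highest in 7 of 8, position 42988785 on chromosome 6 in 6 and position 41903478 on chromosome 6 in 5. Over the 6 clusters with 2 or more members in all 8 libraries, the member with the highest mean level was the same for both editors in 5.

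The cluster with the most entries among the 3 largest lay at positions 39710754 to 39710827 on chromosome 22. It had 7 members over 74 bases, and its levels were low: the mean over its 33 entries was 0.135. Besides the adjacent pair above, position 39710812 was listed in 6 libraries, at 0.118 ± 0.00193 in REPAIR.t1 (SD, n = 2) and 0.127 ± 0.0213 in dCas13d-ADAR (SD, n = 4). Position 39710827 was listed in all 4 dCas13d-ADAR libraries (0.145, 0.0952, 0.143 and 0.102) and in 0 of 4 REPAIR.t1 libraries.

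A cluster of 7 members on chromosome 15, positions 72491568 to 72491641, had a steep profile. Position 72491603 reached 0.411 and 0.382 in REPAIR.t1 NT, 0.489 and 0.463 in REPAIR.t1 EZH2_A22, 0.659 and 0.600 in dCas13d-ADAR NT, and 0.651 and 0.486 in dCas13d-ADAR EZH2. Just 4 bases on, position 72491607 was at 0.257 ± 0.0622 in REPAIR.t1 (SD, n = 4) and 0.264 ± 0.0607 in dCas13d-ADAR (SD, n = 3). Position 72491609 was at 0.175 in 2 REPAIR.t1 libraries and 0.122 in 1 dCas13d-ADAR library. Position 72491610 was at 0.161 ± 0.0418 (SD, n = 4) and 0.135 ± 0.0219 (SD, n = 2). All entries at these 3 later positions were below all entries at 72491603.

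The third cluster of 7 members was the widest, 103 bases from position 242615465 to 242615567 on chromosome 2. Of its 17 entries dCas13d-ADAR EZH2 replicate 1 held 6, at 6 of the 7 members, and dCas13d-ADAR NT replicate 1 held 4, while 2 of 4 REPAIR.t1 libraries, the NT ones, listed none. Its most recurrent site, position 242615523, was in 6 libraries, at 0.208 ± 0.0589 in REPAIR.t1 (SD, n = 2) and 0.242 ± 0.0202 in dCas13d-ADAR (SD, n = 4).

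**Figure D3:**
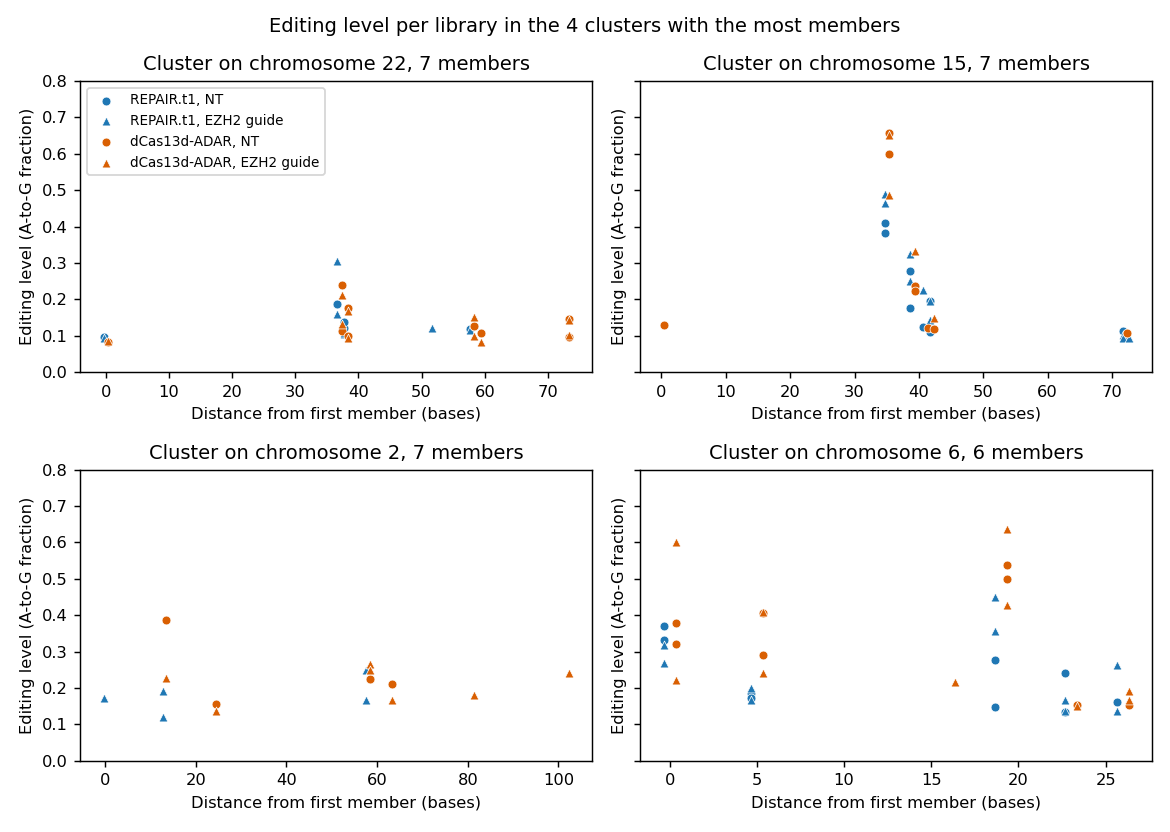
Editing level (A-to-G fraction) in each library against the distance in bases from the first member, for the 4 clusters with the most members (chromosomes 22, 15, 2 and 6); circles are NT and triangles EZH2-guide libraries, blue is REPAIR.t1 and orange dCas13d-ADAR, and points are set slightly apart by editor. On chromosome 15 the levels fall from between 0.382 and 0.659 to between 0.111 and 0.196 within 7 bases, while all levels on chromosome 22 stay at 0.306 or less.

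The highest mean level over entries, 0.474, among clusters with at least 4 members in 4 or more libraries was at positions 41903473 to 41903502 on chromosome 6. Position 41903478 was at 0.471 ± 0.0734 in REPAIR.t1 and 0.609 ± 0.157 in dCas13d-ADAR, and position 41903473 at 0.464 ± 0.0848 and 0.544 ± 0.122 (SD, n = 4 each). Its dCas13d-ADAR NT replicate 1 was the highest at each of the 4 members (0.714, 0.600, 0.773 and 0.632), of 8 libraries at the first 3 and of 6 at the last. The highest single member in all 8 libraries was position 377574 on chromosome 20, at 0.608 ± 0.122 in REPAIR.t1 and 0.586 ± 0.0877 in dCas13d-ADAR. Its neighbour 1 base before, position 377573, was at 0.370 in REPAIR.t1 (n = 3) and 0.381 in dCas13d-ADAR (n = 4).

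Some clusters were listed mostly by 1 editor. On chromosome 8, positions 48890100 to 48890124 held 5 members. Position 48890109 was listed by all 4 dCas13d-ADAR libraries (0.767, 0.8, 0.682 and 0.739) and by 1 REPAIR.t1 library, EZH2_A22 replicate 2, at 0.5. Position 48890114 in the same cluster was at 0.610 ± 0.0443 in dCas13d-ADAR (SD, n = 4) and at 0.360 in that REPAIR.t1 library. The other 3 REPAIR.t1 libraries listed 0 of the 5 members. All 4 REPAIR.t1 libraries listed position 48890247, in another cluster on the same chromosome, at 0.425 ± 0.0637. The reads over the 5 members are not known.

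On chromosome 10 the balance was the other way. Of the 4 members at positions 105063134 to 105063167, position 105063134 was at 0.577, 0.667, 0.5 and 0.625 in the REPAIR.t1 libraries and at 0.263, 0.300 and 0.550 in 3 dCas13d-ADAR libraries. Position 105063137 was at 0.445 ± 0.0607 in REPAIR.t1 (SD, n = 4) and 0.347 ± 0.0749 in dCas13d-ADAR (SD, n = 2). The entries of this cluster numbered 15 for REPAIR.t1 and 8 for dCas13d-ADAR. A cluster on chromosome X at position 77082480, chosen after its values were seen, had 3 members in all 4 REPAIR.t1 libraries, at 0.416 ± 0.0754, 0.422 ± 0.0786 and 0.379 ± 0.0434 (SD, n = 4), and 1 dCas13d-ADAR entry of 0.174.

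Clusters wholly of 1 editor seldom had entries in all libraries of that editor. Only 1 of the 12 clusters of REPAIR.t1 alone had an entry in all 4 of its libraries. In it, position 63526744 on chromosome 11 was at 0.300 and 0.333 in the NT and 0.5 and 0.474 in the EZH2_A22 libraries, and the other 3 members were in EZH2_A22 replicate 2 alone. Likewise 1 of the 34 clusters of dCas13d-ADAR alone had an entry in all 4 of its libraries, at positions 130948073 to 130948119 on chromosome 2 with levels of 0.129 to 0.194; it too was picked after its values were seen. The cluster at positions 146016672 to 146016697 on chromosome 8 was listed by dCas13d-ADAR NT replicate 1 and EZH2 replicate 1 alone, at levels of 0.0755 to 0.125.

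Applied to each editor's 4 lists alone, the rule gave fewer and partly different members. REPAIR.t1 alone gave 218 members in 63 clusters, 2.05% of its 10648 sites, and dCas13d-ADAR alone 367 members in 112 clusters, 2.97% of its 12349 sites. Of these, 69 members were common, which is 31.7% of the REPAIR.t1 set and 18.8% of the dCas13d-ADAR set. For scale, of the 10648 and 12349 sites the editors had in common 261 members of the pooled rule and 5542 other sites. A common site is a member for both only if each editor also lists 3 others within 50 bases, so a smaller overlap is built into the rule. The pooled lists were needed for 72 of the 588 members (12.2%), which were members for neither editor alone. Split by guide instead, the NT lists of both editors gave 292 members and the EZH2 lists 288.

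Within 1 list, dCas13d-ADAR libraries had more dense sites than REPAIR.t1 libraries. Sites with 3 others within 50 bases in their own list numbered 48, 55, 39 and 54 in REPAIR.t1 libraries (0.819% to 1.26% of the list) and 94, 84, 95 and 86 in dCas13d-ADAR libraries (1.45% to 1.64%), without overlap. The difference was not tested, and each dCas13d-ADAR list held more sites. The DECOR lists, of about the same length as those of dCas13d-ADAR, held 235 and 219 such sites (4.26% and 3.74%), and REPAIRv2 lists 0 in each.

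**Figure D4:**
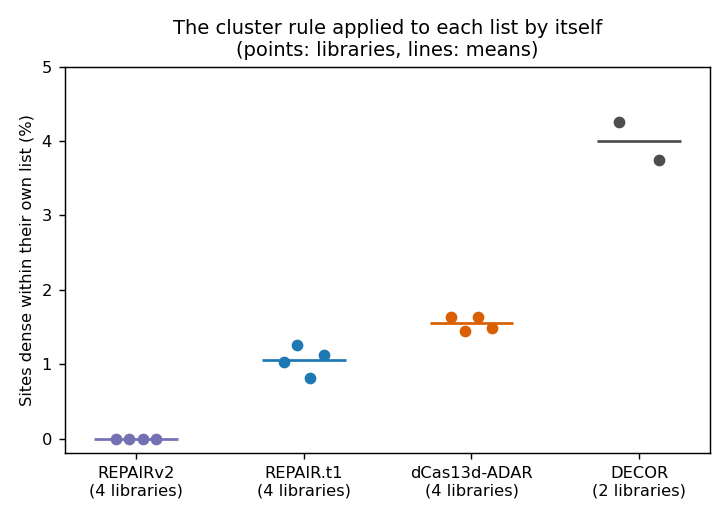
Share (%) of the sites of each list that have at least 3 others within 50 bases in the same list, by editor; points are libraries and lines are means. The 4 dCas13d-ADAR libraries (1.45% to 1.64%) lie above the 4 REPAIR.t1 libraries (0.819% to 1.26%), and both DECOR libraries lie at 3.74% or above.

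Whether the editors differ in level at the clusters was asked at sites listed in all 8 libraries, which leaves out most members. Of 609 such sites 51 were members, in 40 clusters. Members were higher in dCas13d-ADAR by about as much as all tested sites. The mean level over the 51 members was 0.303, 0.303, 0.325 and 0.312 in the REPAIR.t1 libraries and 0.375, 0.384, 0.364 and 0.374 in the dCas13d-ADAR libraries. The libraries of the editors thus did not overlap, and over all 609 sites they did not either. There the library means were 0.310 to 0.333 in REPAIR.t1 and 0.365 to 0.377 in dCas13d-ADAR. Of the 51 members 39 (76.5%) had a higher mean level in dCas13d-ADAR, against a background of 74.7% of all 609 sites. The median difference of dCas13d-ADAR minus REPAIR.t1 was 0.0578 over the members and 0.0496 over all 609.

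Site by site, 5 of the 51 members (9.80%) had an adjusted p below 0.05 by limma on log2 odds, with the guide as a covariate, against 7.22% of all sites tested. The covariate took EZH2_A22 of REPAIR.t1 and EZH2 of dCas13d-ADAR as 1 kind of guide. In those libraries the editor and the guide label cannot be told apart. All 5 were higher in dCas13d-ADAR, where the background for higher sites was 6.57% and for lower sites 0.657%. The libraries of the editors did not overlap at 6 members (11.8%), against 13.3% of all sites. The share of members that differed was thus near that of all sites.

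The member with the largest difference was position 24095325 on chromosome X. Its levels were 0.485, 0.481, 0.419 and 0.348 in the REPAIR.t1 libraries and 0.733, 0.667, 0.700 and 0.640 in the dCas13d-ADAR libraries, with no overlap (limma log2 odds difference 1.49, SE 0.35, adjusted p = 0.00643). Its neighbour 3 bases before, position 24095322, was at 0.257 in REPAIR.t1 (n = 2) and 0.304 in dCas13d-ADAR (n = 3).

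The cluster at positions 42988766 to 42988792 on chromosome 6 held 2 of the 5. Position 42988785 was at 0.276, 0.148, 0.450 and 0.357 in REPAIR.t1 and at 0.538, 0.5, 0.429 and 0.636 in dCas13d-ADAR (limma log2 odds difference 1.38, SE 0.38, adjusted p = 0.0155), with 1 REPAIR.t1 library above the lowest dCas13d-ADAR library. Position 42988771 was at 0.185, 0.174, 0.2 and 0.167 against 0.292, 0.407, 0.240 and 0.409 (limma log2 odds difference 1.14, SE 0.36, adjusted p = 0.0387), without overlap. The first position of the same cluster, 42988766, was at 0.323 ± 0.0419 against 0.380 ± 0.160 (SD, n = 4 each) and did not pass. Positions 42988789 and 42988792, each in 6 libraries, were at 0.170 and 0.187 in REPAIR.t1 and 0.152 and 0.170 in dCas13d-ADAR and were outside the fit, which took sites in all 8.

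The other 2 lay on chromosomes 19 and 1. Position 4090518 on chromosome 19 was at 0.129, 0.160, 0.154 and 0.179 in REPAIR.t1 and at 0.379, 0.300, 0.333 and 0.250 in dCas13d-ADAR, without overlap (limma log2 odds difference 1.27, SE 0.35, adjusted p = 0.0155). In the same cluster position 4090528 was listed by all 4 dCas13d-ADAR libraries, at a mean of 0.234, and by 0 of 4 REPAIR.t1 libraries. Position 227922376 on chromosome 1 was at 0.455, 0.235, 0.276 and 0.250 in REPAIR.t1 and at 0.64, 0.478, 0.375 and 0.522 in dCas13d-ADAR (limma log2 odds difference 1.23, SE 0.37, adjusted p = 0.0274), with overlap.

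**Figure D5:**
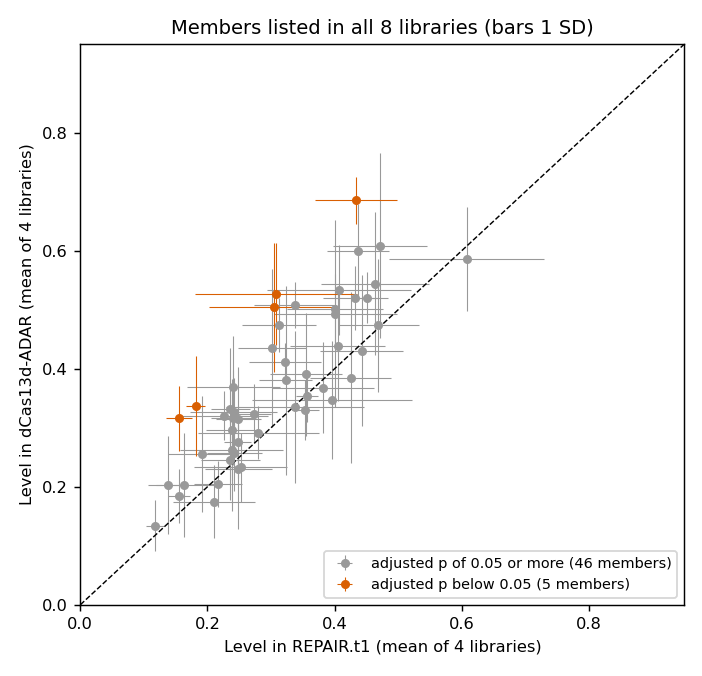
Mean editing level in dCas13d-ADAR against that in REPAIR.t1 for the 51 members listed in all 8 libraries, with bars of 1 SD over 4 libraries and a dashed line of equal levels. Orange marks the 5 members with an adjusted p below 0.05 in limma, all above the line, and 39 of the 51 members lie above it.

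Of the 5 calls, 4 were lost when some single libraries were left out, and position 24095325 on chromosome X passed in all 8 such limma fits. With a library left out the differences in log2 odds were 1.36 to 1.62 at 24095325, and between 0.93 and 1.75 at the other 4. Instead of 5 members, 1 passed when dCas13d-ADAR NT replicate 1 was left out, and 1 when REPAIR.t1 NT replicate 2 was. Leaving out REPAIR.t1 EZH2_A22 replicate 2 gave 2 members, and leaving out dCas13d-ADAR NT replicate 2 gave 3. Within NT libraries alone 0 of 72 members passed in limma, where 18 had an unadjusted p below 0.05. Within EZH2 libraries alone, whose guide labels differ between the editors, 0 of 80 passed in limma, where 5 had an unadjusted p below 0.05. In these fits and in every other alternative that held the site, each of the 5 was still higher in dCas13d-ADAR.

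The EZH2 guide was not detected to change the level of any member. In REPAIR.t1, 0 of 82 members listed in all 4 libraries passed in limma (smallest adjusted p of a member 0.837, with 4 members below 0.05 unadjusted), and 0% of all 1053 sites did. In dCas13d-ADAR, 0 of 109 members passed in limma (smallest adjusted p of a member 0.617, with 6 members below 0.05 unadjusted), and 0% of all 1665 sites did. The member with the lowest p in REPAIR.t1 was position 48890227 on chromosome 8, at 0.188 and 0.179 with NT and 0.423 and 0.333 with EZH2_A22. Its log2 odds difference of 1.39 (SE 0.47) did not pass, so smaller effects of a guide could be missed. Counts of clusters by guide were close: 147 clusters had entries with both kinds of guide, 13 with NT alone and 14 with EZH2 guides alone, and 0 clusters had an entry in every library of 1 kind of guide and in none of the other.

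REPAIRv2 and DECOR were not used to choose the members. Of the short REPAIRv2 lists, 5 of 46, 2 of 46, 5 of 87 and 11 of 101 sites were members, 7.96% ± 3.42 (SD, n = 4). This was above the 4.07% to 4.63% of the union libraries in 3 of 4 REPAIRv2 libraries, 1 of which had 5.75%, and the difference was not tested. Members were also more frequent among recurrent sites: 51 of the 609 union sites in all 8 libraries were members, against 3.42% of the union. Of the 15 members that REPAIRv2 listed, 9 were in all 8. Whether recurrence accounts for the REPAIRv2 share was not tested. The DECOR lists held 18 and 15 members, 0.326% and 0.256% of their sites, and 1.41% and 1.32% of DECOR sites lay within 50 bases of a member. The rule applied to both DECOR lists gave 458 sites in 140 clusters, and 19 of these sites (4.15%) were within 50 bases of a member. Only 33.1% and 33.4% of all DECOR sites lay within 50 bases of any union site. Seen from the clusters, 69 of the 174 had a DECOR site within 50 bases of a member.

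At the 15 members that REPAIRv2 listed, its level was mostly lower than that of REPAIR.t1 and dCas13d-ADAR. Of these 15, 9 were in all 8 union libraries, and 5 were in 2 or more REPAIRv2 libraries. At the rest the REPAIRv2 mean is the value of a single library. The REPAIRv2 mean was below the REPAIR.t1 mean at 14 of 15 and below the dCas13d-ADAR mean at 14 of the 14 listed by that editor, with a median of 0.2, against 0.416 in REPAIR.t1 and 0.470 in dCas13d-ADAR. REPAIRv2 listed at most 2 members of a cluster. Position 72491603 of the cluster on chromosome 15 was at 0.0930, 0.138 and 0.150 in 3 REPAIRv2 libraries. Position 150238125 on chromosome 1 was at 0.161, 0.269 and 0.238 in 3 REPAIRv2 libraries, against 0.432 ± 0.0515 in REPAIR.t1 and 0.519 ± 0.0539 in dCas13d-ADAR (SD, n = 4 each). The highest REPAIRv2 value at a member was 0.591, at position 48890109 on chromosome 8 in 1 EZH2_A22 library.

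DECOR listed 26 members, in 21 clusters, and 7 of the 26 were in both its libraries. These were mostly less recurrent members, in 3.5 of the 8 union libraries at the median, and 4 were in all 8. The DECOR mean was below that of REPAIR.t1 at 10 of the 20 members both listed and below that of dCas13d-ADAR at 15 of 20. Of the 4 members of the cluster at positions 42855954 to 42855993 on chromosome 6, DECOR replicate 2 listed 3, at 0.538, 0.650 and 0.361; the dCas13d-ADAR means there were 0.534, 0.737 and 0.470 (n = 3, 2 and 3). DECOR replicate 1 listed none of them. Position 49995405 on chromosome 19 was in both DECOR libraries (0.128 and 0.189), in 2 REPAIR.t1 libraries (0.1 and 0.0976) and in 3 dCas13d-ADAR libraries (0.111, 0.191 and 0.118).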

How the data were processed

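The authors deposited 1 list per library with chromosome, position and the A-to-G rate as a fraction, per the file headers. Cutadapt, STAR 2.6.1b, hg19 and GRCh37 are named in the submitters' processing notes. How sites were called and filtered is "not given in the sources used here". The lowest listed level was 0.0597.

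The members and lists were chosen with earlier results of these data known. Neighbours and merging used 50 bases inclusive. The test used log2 odds (0.01 added to numerator and denominator) in limma 3.58.1 (R 4.3.3), over all sites in every library compared, with Benjamini-Hochberg adjustment; the code was tested on simulated data. Sites and clusters are named by rank rules: most members, widest, highest mean level, listed by 1 editor, shared with DECOR or REPAIRv2, passing limma, highest in all 8 libraries; of each the telling ones are printed. Alternatives were other windows, neighbour numbers, minimum levels, libraries, guides, transforms and blocks. Among 29 pairs of libraries with at least 1000 shared positions, at most 3.46% of levels were identical, so none of these pairs was a duplicate. The REPAIRv2 lists, of 46 to 101 sites, were too short for this check. Python 3.11.15, pandas 2.3.3 and matplotlib 3.10.9 were used.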

Additional observations from a re-analysis of the deposited data

Results flagged for a closer look

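In the 4 REPAIRv2 libraries, 9.09% of the members listed by EZH2_A22 replicate 2 had a level of at least 0.5, against 0% in the other 3, a sample far from the others; this is 1 of its 11 members, position 48890109 on chromosome 8. The other 3 libraries listed 5, 2 and 5 members, and where 3 values are tied at 0% any other value is flagged. It was 1 of 43 sets of 4 libraries examined for a stray library, and chance alone is expected to flag about 1 set in 20. That rate does not hold for a set with such ties.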

How the results depend on the processing

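The number and share of members follow from the rule, so they moved with it. Members, clusters and the percent of the list in REPAIR.t1, dCas13d-ADAR, REPAIRv2 and DECOR were 588, 174, 4.37, 4.50, 8.54 and 1.36 as reported (for REPAIRv2 and DECOR, within the window of a member). They were 233, 75, 1.90, 1.79, 5.86 and 0.333 with a window of 25 bases, 1412, 383, 9.82, 10.3, 19.3 and 4.14 with 100 bases, 1943, 667, 13.1, 13.9, 21.2 and 4.17 with at least 2 others, and 39, 17, 0.358, 0.359, 1.08 and 0.238 with at least 5 others. Keeping levels from 0.1 up gave 568, 170, 4.26, 4.33, 8.07 and 1.33, keeping those from 0.2 up gave 241, 77, 2.53, 2.32, 4.23 and 0.547, and with positions in at least 2 libraries 140, 44, 1.62, 1.59, 4.23 and 0.423. Leaving out each library gave 495 to 535, 145 to 161, 3.94 to 4.16, 3.99 to 4.31, 6.37 to 8.54 and 1.18 to 1.31; fewer lists can only lower the first. Between the editors, 44 sites in all and 5 members passed in limma. The members passing were 3 among sites missing from at most 1 library, 11 with a window of 100 bases, 12 with at least 2 others and 2 with at least 5 others. Using just the NT libraries, 2 sites passed (168 had an unadjusted p below 0.05), and using just the EZH2 ones, 0 did in limma (114 had an unadjusted p below 0.05); members passing were 0 in both. With each library left out, 10 to 42 sites and 1 to 5 members passed; all sites fell to 10 without dCas13d-ADAR NT replicate 1, 18 without REPAIR.t1 EZH2_A22 replicate 2 and 19 without REPAIR.t1 NT replicate 2. The causes were not tested. The labels do not say whether libraries of equal replicate number were handled together, and a shared batch was not tested. Replicate differences of the 4 groups correlated at -0.0146 to 0.0553 over the 609 sites in all 8 lists. With the replicate number as a block, 44 sites and 5 members passed in limma between editors and 0 members between guides. The guide comparisons gave 0 members in all their alternatives in limma (2 to 5 members at an unadjusted p below 0.05 in REPAIR.t1, 2 to 10 in dCas13d-ADAR). The number of reads behind a level is unknown, which limits each level and each absence.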
